A study of Mus musculus with 58 samples.

Results

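Non-glycolytic target genes of hypoxia-inducible factor 1 (HIF1) were followed over the day in the retinas of diabetic and control mice. The 10 genes were Bnip3, Adm, Ankrd37, Ndrg1, Ddit4, P4ha1, P4ha2, Car9, Kdm3a and Mxi1. They were taken by symbol from a count table of 52459 gene symbols, in which all 10 were listed. A total of 9 passed the filter on low values, a median normalized count above 4 over all libraries, and were among the 19120 genes tested. Car9 did not pass and was described by its counts alone.

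The diabetic mice were males heterozygous for the Ins2Akita allele (C57BL/6-Ins2Akita/J), a model of type 1 diabetes in which misfolded insulin destroys the beta cells. The controls were wild type male littermates on C57BL/6. All were 4 months old, lived under 12 h of light and 12 h of darkness, and were perfused before the retina was dissected, so both genotypes shared the light schedule, the sex and the age. Each library held ribosomal RNA-depleted total RNA of 1 retina, taken at zeitgeber time (ZT) 1, 5, 9, 13, 17 or 21, where ZT0 is lights on and ZT12 is lights off. There were 5, 6, 5, 5, 5 and 4 control libraries and 5, 5, 5, 4, 4 and 5 diabetic libraries at these times, 58 in all. Only males of 1 age and 1 allele were sampled, and each time point was a different set of mice over a single cycle.

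HIF1 is a transcription factor made of an oxygen-regulated alpha subunit and a stable beta subunit, ARNT. In well oxygenated cells prolyl hydroxylases mark the alpha subunit for destruction by the VHL ubiquitin ligase, and when oxygen falls the alpha subunit accumulates and the pair binds DNA at hypoxia response elements with a short core, ACGTG or GCGTG. Its best known targets encode glucose transporters and glycolytic enzymes, and the others serve mitochondrial turnover, collagen modification, growth restraint, chromatin, pH balance and blood vessels. The retina is among the tissues with the highest oxygen use, and rods consume more oxygen in darkness than in light.

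Total counts per library ran from 7773117 to 22147398, with a median of 15406440, and mitochondrial transcripts took between 0.675% and 2.17% of them. The median correlation of a library with the rest ran from 0.977 to 0.987. It was below 0.98 in 5 libraries, which were control ZT17 replicates 1 and 3, control ZT9 replicate 4, diabetic ZT17 replicate 3 and diabetic ZT9 replicate 4. Among cell type markers those of rods were the most abundant, with a summed normalized count between 480600 and 736800, and every list of retinal neurons, Müller glia, vessels and microglia summed to at least 199 in each library. Markers of tissue next to the retina varied more. The summed count of 5 markers of the retinal pigment epithelium ran from 223 to 2760 between libraries, and that of 5 lens markers from 0 to 31850. In bulk tissue a lower value can come from fewer cells of a type or from less RNA per cell, and these cannot be told apart.

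Compared per length of exon, the 10 genes spanned a wide range of levels. In RPKM, reads scaled to exon length and to the library total, given as mean ± SD over the 58 libraries, Ddit4 stood at 63.5 ± 7.12, followed by Ndrg1 at 36.0 ± 3.58 and Bnip3 at 31.7 ± 4.99. P4ha1 came next at 21.6 ± 3.43, then Kdm3a at 14.1 ± 1.9, Mxi1 at 12.0 ± 1.73 and Ankrd37 at 9.54 ± 1.43. P4ha2 stood at 3.19 ± 0.433, Adm at 0.339 ± 0.162 and Car9 at 0.0203 ± 0.0359. The ranges over libraries did not overlap between Ddit4 and Ndrg1 (lowest Ddit4 library 50.7, highest Ndrg1 library 44.6), nor between Ankrd37 and P4ha2 or P4ha2 and Adm. All other neighbours in this order had overlapping ranges.

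Proximal promoters of the members were read from RefSeq (GRCm38.p6), as windows of 300 bases from 250 before to 50 after an annotated start. A total of 9 members had a window, 13 windows in all. Ndrg1 had none. Both strands were searched for ACGTG and GCGTG, the 2 spellings of the HIF core, and overlapping matches were counted as 1. The E-box CACGTG, to which clock and Myc family factors bind, contains ACGTG on both strands. At least 1 core lay in 10 of the 13 windows and in some window of all 9 members, against 43.8% of 32817 windows of all genes and 46.7% of 26994 symbols with a window. The windows of the 4 members with a time effect in control retinas are given here 5′ to 3′, with the matched cores in capitals.
P4ha1 (chr10:59323046-59323345, plus strand): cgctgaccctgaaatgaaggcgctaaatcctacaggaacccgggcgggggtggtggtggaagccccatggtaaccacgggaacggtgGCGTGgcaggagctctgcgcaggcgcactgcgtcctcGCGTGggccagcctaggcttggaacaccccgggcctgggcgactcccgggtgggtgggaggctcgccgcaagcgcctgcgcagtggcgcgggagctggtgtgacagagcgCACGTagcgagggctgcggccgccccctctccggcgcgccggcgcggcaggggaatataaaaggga
Mxi1 (chr19:53329163-53329462, plus strand): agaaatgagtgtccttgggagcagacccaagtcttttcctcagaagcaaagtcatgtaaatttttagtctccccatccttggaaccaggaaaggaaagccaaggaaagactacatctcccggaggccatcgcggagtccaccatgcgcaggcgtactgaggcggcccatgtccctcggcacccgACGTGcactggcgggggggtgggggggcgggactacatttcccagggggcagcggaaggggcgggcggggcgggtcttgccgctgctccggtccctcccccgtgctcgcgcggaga
Bnip3 (chr7:138909457-138909756, minus strand): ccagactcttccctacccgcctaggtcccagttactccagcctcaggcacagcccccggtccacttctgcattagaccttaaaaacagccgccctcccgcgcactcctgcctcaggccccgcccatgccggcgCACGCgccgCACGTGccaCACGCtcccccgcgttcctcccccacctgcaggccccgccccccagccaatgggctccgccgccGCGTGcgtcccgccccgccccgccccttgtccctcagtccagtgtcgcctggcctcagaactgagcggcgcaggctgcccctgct
Ddit4 (chr10:59951721-59952020, minus strand): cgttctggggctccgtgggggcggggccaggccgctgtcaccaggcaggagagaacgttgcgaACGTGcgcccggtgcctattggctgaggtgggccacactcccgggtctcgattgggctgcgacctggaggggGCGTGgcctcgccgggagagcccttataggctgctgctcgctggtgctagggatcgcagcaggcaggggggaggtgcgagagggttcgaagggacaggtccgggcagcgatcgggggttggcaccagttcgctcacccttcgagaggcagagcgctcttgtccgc
The Bnip3 window held 4 separate cores, that began at positions -117, -108, -99 and -35 counted from the start, and the one at -108 was the E-box CACGTG, which 7.15% of all windows held. The P4ha1 window held 3, the Ddit4 window 2 and this Mxi1 window 1. At least 2 separate cores were found in 17.3% of all windows. Of the 3 windows of Mxi1, this one and the one downstream of it each held 1 core and the one upstream held none. The search describes letters in these windows only.

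The first question was whether the level of these genes differed between genotypes over the whole day. It was asked of the counts by the quasi-likelihood test of edgeR, with p-values adjusted after Benjamini and Hochberg over all 19120 genes and a call at an adjusted p under 0.05. No member was called, where 572 of all genes (2.99%) were. DESeq2 also called no member, and 2 members, Ndrg1 and P4ha2, were below 0.05 before adjustment. The members' median log2 difference, diabetic minus control, was 0.026, against 0.0012 over all genes, and 7 of the 9 values were above 0. For every member but Adm the 95% interval lay within -0.23 and 0.22 on the log2 scale.

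**Figure D1:**
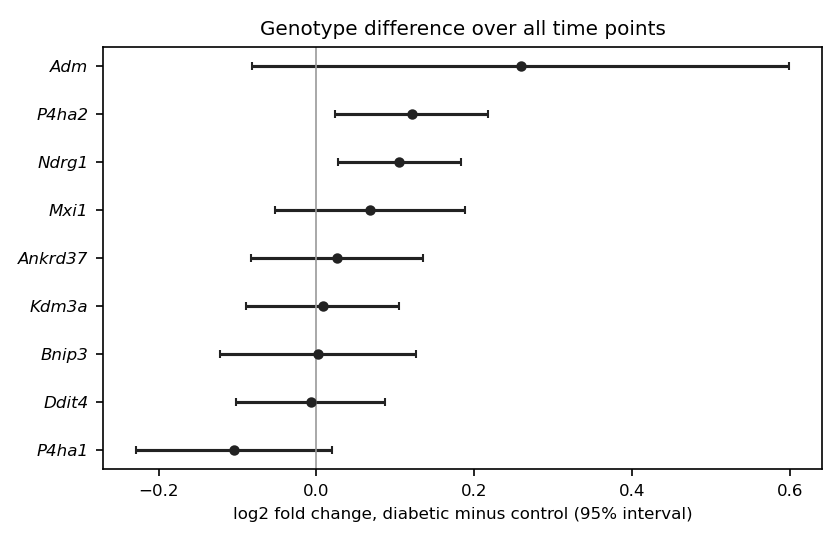
Log2 fold change between diabetic and control retinas over all time points (x axis) for the 9 tested genes (y axis), with 95% intervals from the edgeR fit of 58 libraries. Values run from -0.10 for P4ha1 to 0.26 for Adm. The intervals of P4ha2 and Ndrg1 do not reach 0, and their adjusted p-values are 0.190 and 0.143.

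P4ha1 and P4ha2 encode alternative catalytic alpha subunits of the collagen prolyl 4-hydroxylase, which hydroxylates proline in collagen so that its triple helix is stable. P4ha1 lies on chromosome 10 (59323296 to 59373304, GRCm38, plus strand) and had the smallest p for time of the 10 genes in both genotypes. In control retinas its normalized counts were 941, 1041, 1076, 1078, 1048 and 1066 at ZT5 (lowest 941, highest 1078), and 1521, 1613, 1590, 1626 and 1729 at ZT17. Every ZT17 library lay above every ZT5 library, and the ratio of the means was 1.55. In diabetic retinas the counts were 925, 867, 985, 1193 and 1130 at ZT9 and 1392, 1555, 1571 and 1543 at ZT17. Again the groups did not overlap, and the ratio was 1.49. The edgeR test for any difference among the 6 time points gave an adjusted p of 6.35e-07 in control and 1.37e-05 in diabetic retinas. Here and below, overlap within a genotype is given for the times of the highest and lowest group means, a choice that favours separation. The share of all genes separated in this way was not counted. In diabetic retinas such groups also did not overlap for Ndrg1, P4ha2 and Ankrd37, where no time effect was called.

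P4ha1 was also the member with the largest genotype difference at a single time among those above a mean of 10 reads. At ZT21 its counts were 1442, 1432, 1649 and 1528 in control and 1188, 1271, 1149, 1196 and 1319 in diabetic retinas. The genotypes did not overlap there, as for 2.23% of all genes at ZT21. The log2 difference was -0.31 ± 0.0911 (SE), with an edgeR adjusted p of 0.48 over all genes, so it was not called. No other member had separated genotypes at ZT21, and none had at the other times, where the share of all genes that did was 0.91% for ZT1, 1.1% for ZT5, 0.774% for ZT9, 1.07% for ZT13 and 1.97% for ZT17. Over all times the P4ha1 difference was -0.10 ± 0.0624, with an adjusted p of 0.440.

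P4ha2, on chromosome 11 (54100095 to 54131665, plus strand), was expressed at a lower level and moved less. Its group means ran from 249 ± 17.9 (SD, n = 6) at ZT5 to 314 ± 40.5 (n = 5) at ZT1 in control retinas, and from 271 ± 28.2 (n = 4) at ZT13 to 334 ± 10.5 (n = 5) at ZT1 in diabetic retinas. The time effect was not called in either genotype (edgeR adjusted p = 0.155 in control and 0.209 in diabetic retinas). The genotype difference over all times was 0.12 ± 0.0487, higher in diabetic retinas at each of the 6 time points by group means, with an adjusted p of 0.190. The interval of this difference ran from 0.02 to 0.22.

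Bnip3 encodes a protein of the outer mitochondrial membrane that acts in mitophagy and cell death. It lies on chromosome 7 (138890836 to 138909519, minus strand). Control counts were 890, 893, 885, 628 and 911 at ZT9, and 1262, 1071, 1279 and 1362 at ZT21. The groups did not overlap, and the ratio of the means was 1.48. In diabetic retinas the counts were 952, 918, 1107, 858 and 750 at ZT9 and 990, 1229, 1171 and 1407 at ZT13, where the highest mean fell, and these groups overlapped at a ratio of 1.31. The time effect was called in control retinas with an adjusted p of 2.38e-03 and in diabetic retinas with 0.0472 by edgeR. The diabetic call was close to the threshold, and of 58 fits with 1 library left out 29 kept it, while the adjusted p in the others ran from 0.0503 to 0.11. Control ZT17 was the most variable Bnip3 group, with counts of 862, 1418, 938, 1203 and 1359. The 2 low values were from replicates 1 and 3, which were among the libraries of lowest correlation.

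Mxi1 encodes a partner of MAX that opposes Myc at its target promoters. It lies on chromosome 19 (53310518 to 53375810, plus strand) and changed with time in both genotypes. Control counts were 795, 791, 956, 1163, 929 and 971 at ZT5 (lowest 791, highest 1163) and 1381, 1325, 1519, 1321 and 1301 at ZT17, without overlap and with a ratio of means of 1.47. Diabetic counts were 997, 938, 988, 1289 and 972 at ZT5 and 1366, 1546, 1546 and 1589 at ZT17, also without overlap, with a ratio of 1.46. The time effect had an adjusted p of 3.94e-04 in control and 7.52e-05 in diabetic retinas. From ZT17 to ZT21 both means were lower, at 1250 ± 184 (SD, n = 4) in control and 1106 ± 69.2 (n = 5) in diabetic retinas. The difference at ZT21 was -0.18 ± 0.101 on the log2 scale and that at ZT13 was 0.22 ± 0.101. Neither was called by edgeR (adjusted p of 0.99988 at ZT21 and 0.999926 at ZT13), and the interaction of genotype with time had an adjusted p of 0.999999.

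Ddit4, also known as REDD1, encodes an inhibitor of the growth kinase complex mTORC1 and also responds to glucocorticoids and energy stress. It lies on chromosome 10 (59949669 to 59951834, minus strand) and was the most abundant of the 10 genes per length. Control counts were 1249, 1433, 1447, 1409, 1547 and 1608 at ZT5 (lowest 1249, highest 1608) and 1597, 1901, 2041, 1770 and 2115 at ZT17. These groups overlapped only by 1 library on each side, and the ratio of the means was 1.30. In diabetic retinas ZT5 counts were 1682, 1416, 1565, 1451 and 1417 and ZT17 counts were 1669, 2232, 1466 and 1633. They overlapped, and the ratio was 1.16. The time effect was called in control retinas (adjusted p = 0.0182 by edgeR) and not in diabetic retinas (adjusted p = 0.624). The control call was lost without ZT17 replicate 3 (adjusted p = 0.0576) and without ZT17 replicate 5 (0.0585), and was kept in the other 56 fits. That these courses differ between genotypes was not shown, since the edgeR interaction of genotype and time had an adjusted p of 0.999999. Of 6 genes fixed as glucocorticoid responsive, among them the clock gene Per1, 4 had a time effect in each genotype. Of all genes 9.06% had one in control and 10.2% in diabetic retinas. The summed count of the 6 genes rose from 9537 at ZT5 to 11130 at ZT17 in control and from 9965 to 11660 in diabetic retinas. Any part of glucocorticoids in the Ddit4 course was not tested.

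Ndrg1 encodes a protein of the N-myc downstream regulated family that is induced by stress and differentiation. It lies on chromosome 15 (66929318 to 66969640, minus strand) and had the highest normalized count of the 10 genes. Group means ran from 3091 ± 221 (SD, n = 5) at ZT13 to 3589 ± 258 (n = 5) at ZT17 in control retinas, and from 3114 ± 209 (n = 4) at ZT13 to 3721 ± 303 (n = 4) at ZT17 in diabetic retinas. The time effect was not called in either genotype (edgeR adjusted p = 0.410 in control and 0.308 in diabetic retinas). The diabetic mean was above the control mean at each of the 6 times, and the difference over all times was 0.11 ± 0.0391 on the log2 scale, with an interval from 0.03 to 0.18 and an adjusted p of 0.143. At ZT5, where the difference was 0.20 ± 0.0838, control counts were 3020, 2814, 3132, 3159, 3406 and 3356 and diabetic counts were 3587, 3422, 3447, 4359 and 3304. They overlapped, and the adjusted p was 0.708.

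Kdm3a encodes a histone demethylase that removes methyl groups from lysine 9 of histone H3 and is linked to gene activation. It lies on chromosome 6 (71588972 to 71632990, minus strand). Its highest mean was at ZT13 in both genotypes, 1906 ± 265 (SD, n = 5) in control and 1991 ± 229 (n = 4) in diabetic retinas. Control counts were 1700, 2026, 1942, 1600 and 2265 at ZT13 against 1623, 1679, 1699, 1165 and 1368 at ZT9. The groups overlapped, and the ratio was 1.27. The edgeR time effect was not called (adjusted p = 0.0877 in control and 0.184 in diabetic retinas). Without the 5 libraries of lowest correlation it was called in both, with adjusted p-values of 0.019 and 0.0396, and without control ZT13 replicate 4 alone it was called in control retinas (0.0394).

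Ankrd37 encodes a small protein with ankyrin repeats and lies on chromosome 8 (45996902 to 46005707, minus strand). Group means lay between 183 ± 25.0 (SD, n = 5) at ZT1 and 240 ± 38.5 (n = 5) at ZT13 in control retinas, and between 195 ± 19.7 (n = 4) at ZT17 and 245 ± 20.2 (n = 4) at ZT13 in diabetic retinas. The time effect was not called (edgeR adjusted p = 0.140 in control and 0.241 in diabetic retinas). Lrp2bp overlaps 6405 bases of this gene on the other strand at a mean of 185 reads per library. Whether counting used strand was not stated, so the value of Ankrd37 is uncertain.

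Adm and Car9 act outside the cell or at its surface. Adm encodes adrenomedullin, a vasodilator peptide, and Car9 encodes a membrane carbonic anhydrase that exports acid from hypoxic cells and is induced strongly by HIF1. Adm had between 1 and 24 reads per library, with a mean of 8.43. Its group means ran from 5.74 ± 2.7 (SD, n = 4) at ZT21 to 9.02 ± 3.00 (n = 5) at ZT17 in control retinas and from 5.99 ± 1.58 (n = 5) at ZT5 to 11.7 ± 3.76 (n = 4) at ZT17 in diabetic retinas. The genotype difference was 0.26 ± 0.170, with an interval from -0.08 to 0.60 and an adjusted p of 0.506. Car9 had no read in 36 of the 58 libraries, a mean of 0.759 reads and at most 9 reads. A count of 0 in a library leaves room for an expected count of up to 3 reads.

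**Figure D2:**
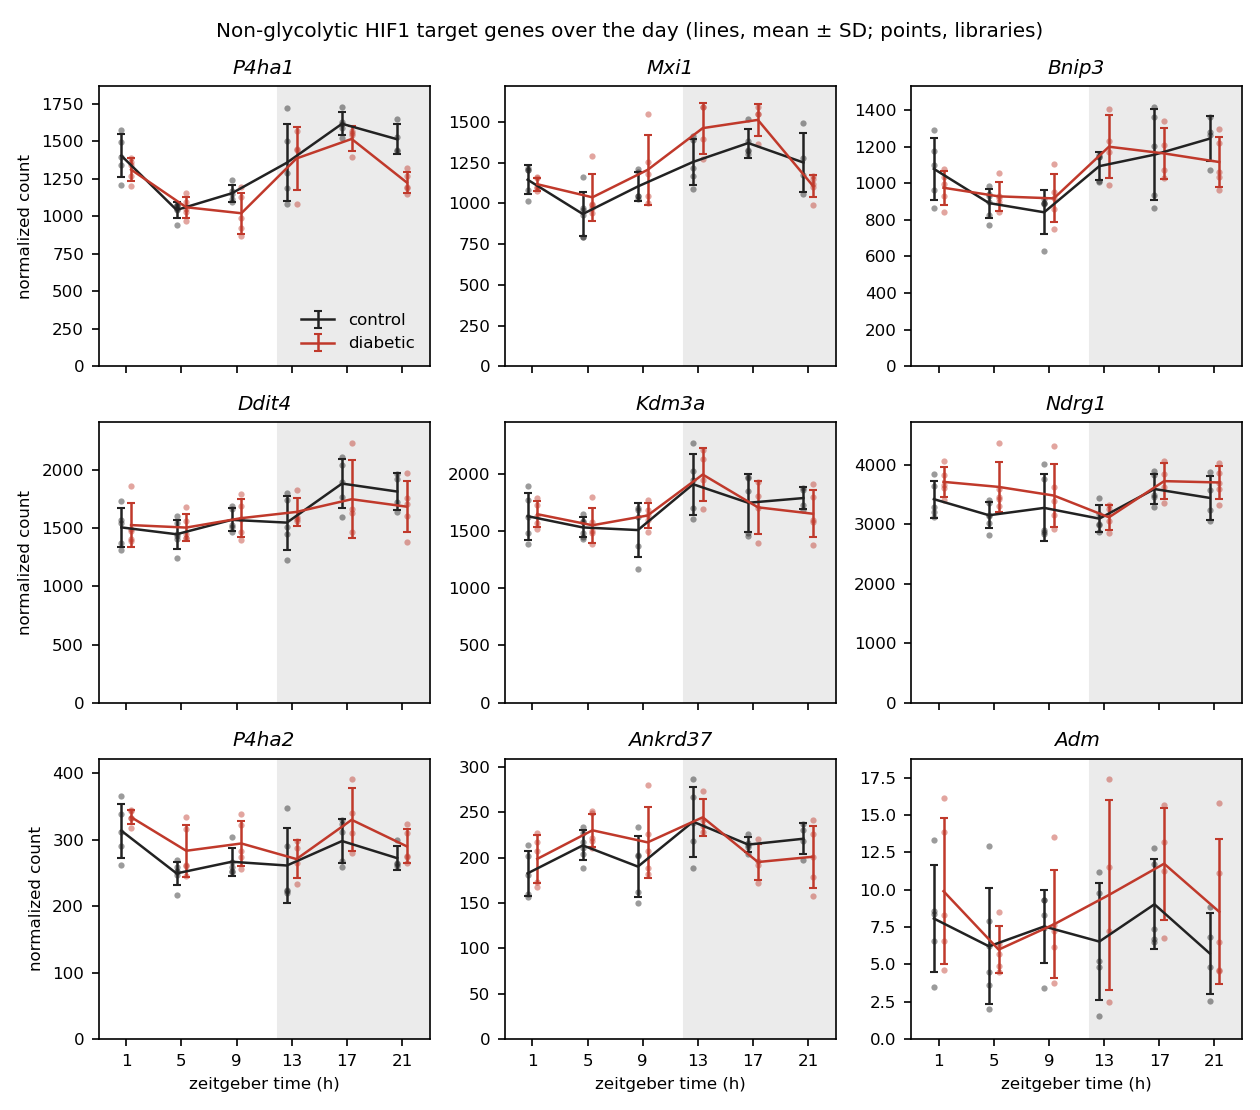
Normalized counts (y axis) of the 9 tested genes against zeitgeber time in hours (x axis); points are libraries (control black, diabetic red), lines join group means with SD bars, and grey marks darkness. The P4ha1 mean is lowest at ZT5 in control (1042) and at ZT9 in diabetic retinas (1020) and highest at ZT17 in both (1616 and 1515), and Adm stays below 20 counts.

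Taken by time point, no member was called for genotype by edgeR at any of the 6 times, where the share of all genes called was 0.0105% for ZT1, 0.0209% for ZT5, 0.00523% for ZT9, 0% for ZT13, 0.167% for ZT17 and 0% for ZT21. DESeq2 called none either. Before adjustment, Ndrg1 at ZT5, Mxi1 at ZT13 and P4ha1 at ZT9 and ZT21 were below 0.05. The members' median log2 difference was 0.0263, 0.0574, 0.112, 0.0657, 0.00643 and -0.12 from ZT1 to ZT21, and 6, 8, 7, 9, 5 and 3 of the 9 were higher in diabetic retinas. Over all genes the medians at these times lay between -0.00387 and 0.00724.

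Over the 6 time points, 4 of 9 members had a time effect in control retinas, against 9.06% of all genes, and 3 of 9 had one in diabetic retinas, against 10.2%. These were P4ha1, Mxi1, Bnip3 and Ddit4 in control and the first 3 of them in diabetic retinas. Each of these had its lowest mean in the light, at ZT5 or ZT9, and its highest in the dark, between ZT13 and ZT21. Before adjustment 7 members in control and 5 in diabetic retinas were below 0.05. The share of all genes below 0.05 before adjustment was not counted, here or for the other tests. No member was called for an interaction of genotype with time, where 0% of all genes were called by edgeR. No member was below 0.05 there before adjustment, and DESeq2 called none.

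Some markers of cell types changed over the same hours. From ZT5 to ZT17, over both genotypes, the summed count of 5 Müller glia markers went from 39080 to 45670 and that of 5 bipolar cell markers from 19910 to 23420, and 5 endothelial markers went from 3402 to 3072. The retinal pigment epithelium list went from 498 to 1331. The lens list went from 26.2 to 4429 in control and from 13.2 to 8.76 in diabetic retinas. A time effect was called in control retinas for 1 of 5 Müller glia, 4 of 5 bipolar, 1 of 5 endothelial and 3 of 5 pigment epithelium markers. In diabetic retinas it was called for 2, 4, 1 and 3 of them. It was also called for 1 of 5 rod markers in each genotype, for 2 of 5 cone markers in control and 3 in diabetic retinas, and for 2 lens markers in control retinas. Their part in the time course of the HIF1 targets was not tested. Between genotypes, 2 of 5 cone markers and 1 of 5 microglia markers were lower and 1 of 5 amacrine markers was higher in diabetic retinas. The lens marker Cryaa was lower by a log2 difference of -5.01 ± 0.964 (edgeR adjusted p = 0.00097) and the glucocorticoid-responsive Fkbp5 was higher by 0.23 ± 0.0516 (0.0056). The summed lens count reached 31850 in a control library, against a highest control group mean of 6418 and a highest diabetic library of 690.5. How far the Cryaa difference rests on few libraries was not tested.

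The second question was which of the genes had a 24 h rhythm in each genotype, by criteria modelled on those of the study. An empirical JTK_CYCLE test compares each series with 30 waveforms and takes its p from random series, and a gene was called at p under 0.05 if its highest library also exceeded its lowest by more than 25%, which all 9 members did. The study took its fold from the output of its own program. In control retinas 6 of 9 members were called (P4ha1, Mxi1, Bnip3, Ddit4, Kdm3a and Ndrg1), against 21.8% of all genes. In diabetic retinas 5 of 9 were called, the same genes without Ddit4, against 23.9%. With the fold taken between time point means there were 5 in control (13.2% of genes) and 4 in diabetic retinas (14.2%). With the p adjusted over all genes there were 4 in control (8.23% of genes) and 3 in diabetic retinas (9.8%). By the JTK_CYCLE p, P4ha1 had 4e-06 in control and 0.000286 in diabetic retinas, and Mxi1 had 4.6e-05 and 6.3e-05. For Ddit4 these JTK_CYCLE p-values were 0.00399 and 0.145, and the control call was lost without all libraries of ZT17 (0.115). The Ndrg1 call was close to the threshold (JTK_CYCLE p of 0.0448 in control and 0.0391 in diabetic retinas). It was kept in 12 of 30 control and 14 of 28 diabetic series with 1 library left out. It was lost in both genotypes with the adjusted p (0.208 and 0.178), with the edgeR cosine test, and with the fold between time point means, which was 1.16 in control and 1.19 in diabetic retinas. The Kdm3a call in diabetic retinas (JTK_CYCLE p of 0.0241) was kept in 22 of 28. It was lost with the adjusted p (0.132), with TMM scaling (JTK_CYCLE p of 0.061) and without all libraries of ZT5, ZT13 or ZT17. The control Kdm3a call was lost with the adjusted p (0.0669) and without ZT5 or ZT13. Ddit4 was called in diabetic retinas without ZT1 replicate 1 (0.0385) or without ZT21 replicate 2 (0.0489), both JTK_CYCLE p-values.

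A 24 h cosine gave the size of each rhythm as amplitude in percent of the mean. P4ha1 had 20.6 ± 2.59% (SE, n = 30) in control and 15.6 ± 3.28% (n = 28) in diabetic retinas. Bnip3 had 18.3 ± 3.56% and 14.2 ± 3.27%, and Mxi1 had 16.4 ± 2.65% and 18.7 ± 3.24%. Ddit4 had 12.2 ± 2.81% and 7.24 ± 3.16%, Kdm3a 9.70 ± 3.15% and 8.41 ± 3.05%, and Ndrg1 5.84 ± 2.69% and 6.30 ± 2.71%. The median over the rhythmic members of control retinas was 14.3%, and of diabetic retinas 14.2%, against 11.1% and 10.9% over all rhythmic genes.

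Fitted peaks (acrophases) of every rhythmic member fell in the dark, in both genotypes, whereas 49.2% of all rhythmic genes in control and 51.8% in diabetic retinas peaked there. Night peaks were also the rule among the rhythmic genes of other HIF1 targets, in 19 of 20 glycolytic and 12 of 14 other non-glycolytic ones in control retinas and in 15 of 16 and 12 of 13 in diabetic retinas. In control retinas they ran from ZT 17.0 ± 1.31 h (SE) for Kdm3a to ZT 20.3 ± 1.70 h for Ndrg1. Mxi1 peaked at ZT 17.3 ± 0.647 h, P4ha1 at ZT 18.7 ± 0.484 h and Bnip3 at ZT 19.3 ± 0.735 h. In diabetic retinas Mxi1 peaked at ZT 14.8 ± 0.638 h, P4ha1 at ZT 17.8 ± 0.799 h and Bnip3 at ZT 16.9 ± 0.865 h. Ndrg1 was the latest at ZT 23.6 ± 1.65 h, with an SE that reached past lights on. The lowest Ndrg1 mean was in the dark, at ZT13, in both genotypes. The difference, diabetic minus control, was -2.47 ± 0.909 h for Mxi1 (95% interval -4.25 to -0.688 h) and -2.42 ± 1.14 h for Bnip3 (-4.65 to -0.199 h). For Kdm3a it was -2.45 ± 1.87 h, for P4ha1 -0.892 ± 0.934 h and for Ndrg1 3.32 ± 2.37 h, with intervals that included 0.

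Peaks were thus earlier in diabetic retinas for 4 of the 5 members rhythmic in both genotypes, with a median of -2.42 h. The P4ha1 difference turned to 0.109 h without ZT13 and ran down to -2.38 h without ZT9, and that of Mxi1 was -1.4 h without ZT21. Over all 2268 genes rhythmic in both, 70.6% were earlier, with a median of -0.63 h. These intervals were not adjusted over genes. The edgeR test for a difference of the 24 h cosine between genotypes called no member, and 0% of all genes. Its adjusted p was 0.999816 for every member, DESeq2 called none, and Mxi1 alone was below 0.05 before adjustment.

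**Figure D3:**
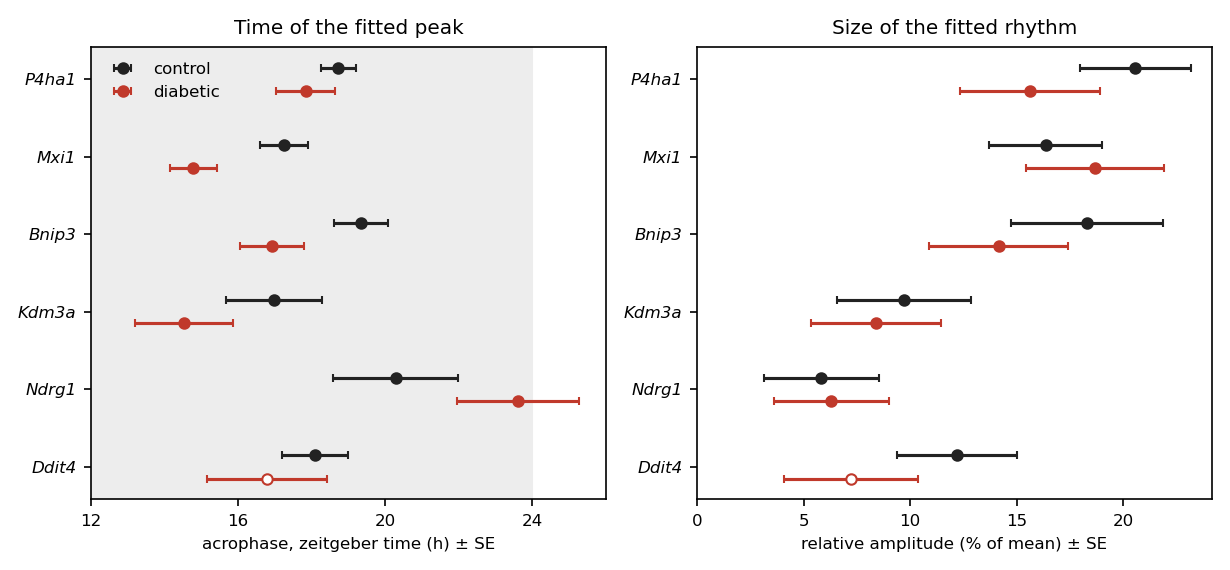
Fitted peak time (left, zeitgeber time in hours, grey for darkness) and amplitude in percent of the mean (right) of the 6 genes called rhythmic in at least 1 genotype, each with its standard error. Control is black and diabetic red, and the open symbol marks Ddit4 in diabetic retinas, which was not called. The diabetic peaks of Mxi1, Bnip3 and Kdm3a lie more than 2 h before the control peaks, and that of Ndrg1 lies after.

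The genes whose course was most like that of each rhythmic member were found by Pearson's correlation of the 12 group means of log2 CPM (counts scaled to the library total) among 14961 tested genes with a name. The 12 means share libraries between genes, so these values are descriptive. For P4ha1 they were Ak4 (r = 0.938), Fibcd1 (0.934) and Zscan26 (0.934), and for Bnip3 Slc35g1 (0.944), Tspan18 (0.944) and Pdk1 (0.941). Ak4 (adenylate kinase 4) and Pdk1 (pyruvate dehydrogenase kinase 1) are themselves known HIF1 targets. For Mxi1 they were Bean1 (0.922), Fam107a (0.919) and Pawr (0.917), and for Ddit4 Fam212b (0.953), Trp53inp2 (0.952) and Tmem229b (0.946). For Kdm3a they were AC160637.1 (0.934), Ero1l (0.925), which is another known HIF1 target, and Anxa1 (0.897). For Ndrg1 they were Abi3 (0.98), Slx1b (0.956) and Plch2 (0.934). Apart from Ak4, Pdk1 and Ero1l, none of the genes named here was on the list of HIF genes described next. A shared cause of these courses was not tested.

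A list of 59 other tested genes of the HIF pathway was described in the same way, against 21.8% and 23.9% of all genes rhythmic and 9.06% and 10.2% with a time effect in control and diabetic retinas. Among its 29 other non-glycolytic targets, control retinas had 14 that were rhythmic and diabetic retinas 13, with a time effect in 8 and 6. Among 20 glycolytic and glucose targets, all 20 were rhythmic in control retinas and 16 in diabetic, and a time effect was called for 17 and 13. Of 5 HIF subunits, 3 were rhythmic in each genotype and 1 had a time effect, Hif3a, with an edgeR adjusted p of 1.68e-07 in control retinas and 7.26e-05 in diabetic. Of 5 oxygen sensors and degradation factors, 2 were rhythmic in each genotype, and 1 had a time effect in control and 2 in diabetic retinas. The prolyl hydroxylase Egln1 had an edgeR adjusted p of 1.99e-07 in control and 8.51e-05 in diabetic retinas for time.

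Hk2 (hexokinase 2) had the smallest edgeR adjusted p for time of this list, 7.62e-13 in control and 5.99e-13 in diabetic retinas, and an amplitude of 36.4 ± 2.56% in control. Slc16a3, a lactate exporter, had 2.73e-09 and 2.20e-07, and the phosphofructokinase Pfkl 3.51e-08 and 3.73e-05. Among non-glycolytic genes outside the 10, Car12, a membrane carbonic anhydrase like Car9, had 0.000157 in control and 3.24e-08 in diabetic retinas. For genotype over all times, 2 of the 59 were called, both higher in diabetic retinas, a share close to the 2.99% of all genes. Selenbp1, a selenium-binding protein, differed by 0.69 ± 0.114 on the log2 scale (edgeR adjusted p = 7.51e-05) and Ppfia4, a liprin, by 0.12 ± 0.0345 (0.0305). Selenbp1 was also called at ZT17, at 1.17 ± 0.221 (0.0060). The list's median difference was -0.00686, and that of its glycolytic genes was -0.0745.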

How the data were processed

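RNA sequencing libraries of single mouse retinas were analysed. The deposited table held raw read counts per gene, which the authors made by aligning paired reads with STAR 2.7.4a to GRCm38.p5 and counting with HTSeq 0.11.1 against Gencode M15. The strand setting of the counting was not given in the sources used here.

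Normalized counts are counts divided by DESeq2 size factors. The filter of the study, a median above 4, left 19120 genes. Tests used edgeR 4.0.16 (R 4.3.3) with TMM factors on the deposited counts, in 3 fits: genotype alone, the 12 groups of genotype and time, and genotype with a 24 h cosine. DESeq2 1.42.0 and limma 3.58.1 served as alternatives. Empirical JTK_CYCLE was rewritten in Python 3.11.15, with 1000000 random series for the null distribution. The study tested differential rhythm with another package, in place of which the edgeR cosine test was used. The edgeR and rhythm tests were checked on simulated data. Gene positions came from Gencode M21 (GRCm38), in which 48082 of the 52459 symbols and all 10 members were found.

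The members, the list of other HIF genes and the markers were chosen with earlier results of these data known. All 10 members are described. A gene of the HIF list is named only where called, at most 5 per test by smallest adjusted p, and for each rhythmic member the 3 most alike genes are named, leaving out symbols that start with Gm or end in Rik. Samples were grouped by genotype and time as labelled. The labels number replicates but do not say that equal numbers share a litter or day. Alternatives were other size factors, filters and tests, the replicate block, and leaving out each library or time point. Leaving out the 5 libraries of lowest correlation, and the alternatives for peak times, were added after seeing the data.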

Additional observations from a re-analysis of the deposited data

Results flagged for a closer look

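In 9 of the 108 groups of a gene, a genotype and a time, the highest or lowest library stood apart from the rest of its group by Dixon's criterion, which flags about 1 in 20 groups by chance. Among low values, Bnip3 was at 627.8 normalized counts in control ZT9 replicate 4, where the others ran from 885.2 to 911.4. P4ha1 was at 941.3 in control ZT5 replicate 1 (others 1041 to 1078) and at 1392 in diabetic ZT17 replicate 1 (others 1543 to 1571). Among high values, diabetic ZT5 replicate 4 had Ndrg1 at 4359 (others 3304 to 3587) and Mxi1 at 1289 (others 938.5 to 997.0). Ddit4 was at 1863 in diabetic ZT1 replicate 1 (others 1394 to 1497) and at 1826 in diabetic ZT13 replicate 1 (others 1562 to 1594). P4ha2 was at 303.5 in control ZT9 replicate 4 (others 252.2 to 266.5) and at 300.0 in control ZT21 replicate 4 (others 261.0 to 265.0).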

How the results depend on the processing

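No member was called for genotype, over all times or at any time, nor for an interaction of genotype with time or with the rhythm, under any alternative run. The time effect in control retinas was called for 3 to 5 members over all alternatives, and in diabetic retinas for 2 to 3 with 1 library left out. With the replicate block the diabetic count was 5, with Ndrg1 and P4ha2 added (edgeR adjusted p = 0.0411 and 0.0389), and P4ha2 was added in control retinas (0.0207). The labels do not say whether same-numbered libraries of the 2 genotypes form pairs, so neither fit can be preferred on that ground. Deviations of same-numbered libraries correlated with a median r of 0.126 over 26 pairs (from -0.219 to 0.579, 15 above 0.1). For 114 differently numbered pairs the median was -0.0281. DESeq2 and the fit without the 5 libraries of lowest correlation added Kdm3a to the control time effects (adjusted p = 0.0402 and 0.019). The count of rhythmic members in diabetic retinas, 5, was 3 with the adjusted p-value, 3 without all libraries of ZT5 and 3 without those of ZT13. It ran from 3 to 6 with 1 library left out, and was 3 without diabetic ZT13 replicate 3, 4 or 5 or ZT17 replicate 4. P4ha2 gained a time effect in control retinas without ZT13 replicate 5 (edgeR adjusted p = 0.0266). The log2 difference of Bnip3, near 0, turned to -0.013 with the replicate block and -0.026 without the 5 libraries, and ran from -0.0173 to 0.0201 with 1 library left out. That of Kdm3a turned to -0.0133 and -0.0134 and ran from -0.00878 to 0.0261, and that of Ddit4 ran from -0.0275 to 0.00834. The peak difference of P4ha1 (-0.892 h) turned to 0.109 h without ZT13, was -2.38 h without ZT9 and ran from -1.25 to -0.454 h with 1 library left out (the latter without diabetic ZT13 replicate 5). That of Mxi1 (-2.47 h) was -1.4 h without ZT21. Those of Bnip3, Mxi1 and Kdm3a stayed earlier under every alternative run. Counts over all genes moved by more than 1.5 times in several alternatives, among them for genotype over all times from 572 to 919 with time as an additive factor, for genotype at ZT17 from 32 to 87 by DESeq2, 60 with the replicate block and 17 without the 5 libraries, at ZT5 from 4 to 24, 10 and 12, and for the rhythm from 4172 in control and 4565 in diabetic retinas to 2532 and 2710 with the fold taken between time point means and to 1573 and 1874 with the adjusted p-value. The number of rhythmic members in control retinas ran from 4 to 8 over all alternatives. The cause of these shifts was not tested. Adm and Car9 had few reads. There is 1 cycle of 6 times, so the period was set at 24 h and not fitted.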
